A study of Mus musculus with 18 samples.

Results

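Myosin heavy chains are the motor subunits of the thick filament. The 8 genes described here, Myh1, Myh2, Myh3, Myh4, Myh6, Myh7, Myh7b and Myh8, encode the forms used in striated muscle. They were taken by symbol from the GENCODE M39 annotation and matched to the count table by gene identifier. All 8 were found among the 55414 genes of the table and passed the minimum of 10 counts that 21772 genes passed. Myh3 is the embryonic and Myh8 the neonatal (perinatal) form. Myh1 (type IIx), Myh2 (type IIa) and Myh4 (type IIb) are the adult fast forms, Myh7 is the slow and beta-cardiac form, Myh6 the alpha-cardiac form, and Myh7b a slow form related to both. Each fiber is classed by the heavy chain that dominates in it, because the chain sets how fast the motor hydrolyses ATP and so how fast the fiber shortens. In developing and regenerating muscle the embryonic and neonatal genes are switched on first and give way to adult genes.

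The cells were C2C12, a mouse myoblast line whose cells fuse into myotubes. They were transfected at confluence with a pool of siRNAs, either non-targeting (siNTC), against Erk3 (gene Mapk6, an atypical MAP kinase) or against Mk5 (gene Mapkapk5, a kinase that binds Erk3), and differentiated for 6 days. Each siRNA was then combined with 16 h in serum-free medium holding either 0.5 mM palmitic acid bound to bovine serum albumin (PA) or the albumin vehicle alone (BSA). The 6 groups had 3 stranded poly(A) RNA-seq libraries each. All groups came from 1 cell line and carried an siRNA pool, so no untransfected culture enters any comparison. The design asks how silencing of either kinase changed the transcriptome with and without fatty acid overload, and the heavy chains are the standard markers of fiber type in such cells.

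The 5 skeletal genes Myh3, Myh2, Myh1, Myh4 and Myh8 lie in this order on the plus strand of mouse chromosome 11, from chr11:66969126-66993117 (Myh3) to chr11:67167950-67199460 (Myh8), with Myh2 at chr11:67061853-67088343, Myh1 at chr11:67090878-67115401 and Myh4 at chr11:67128855-67151272. Myh6 (chr14:55179378-55204384) and Myh7 (chr14:55208141-55232083) are neighbors on the minus strand of chromosome 14, and Myh7b (chr2:155453132-155476227) lies alone on chromosome 2. Coordinates are GRCm39 with Ensembl gene bounds, as in the count table.

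The genes are close relatives, and the stretch of coding sequence around the ATP-binding loop of the motor shows how close. The 60 coding bases that start at this loop lie within a single exon in each gene. They are given below, read from GRCm39 on the coding strand, with capitals at each base that differs from Myh3. They are shown because reads of such stretches decide how well the members can be told apart.
Myh3, chr11:66974577-66974636: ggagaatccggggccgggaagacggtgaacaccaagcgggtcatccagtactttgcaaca
Myh8, chr11:67174205-67174264: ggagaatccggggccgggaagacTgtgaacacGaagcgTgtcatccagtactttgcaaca
Myh1, chr11:67095176-67095235: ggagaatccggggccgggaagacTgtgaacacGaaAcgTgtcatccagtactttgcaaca
Myh6, chr14:55200529-55200588: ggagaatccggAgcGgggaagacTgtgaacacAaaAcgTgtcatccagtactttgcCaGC
Myh7, chr14:55228597-55228656: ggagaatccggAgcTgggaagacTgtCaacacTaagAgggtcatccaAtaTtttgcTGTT
Myh7b, chr2:155457322-155457381: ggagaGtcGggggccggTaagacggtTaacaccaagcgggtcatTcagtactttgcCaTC
Myh2 (chr11:67067081-67067140) and Myh4 (chr11:67133088-67133147) had the Myh8 sequence letter for letter. In this stretch Myh2, Myh4 and Myh8 differed from Myh3 at 3 bases, Myh1 at 4, Myh7b at 8, Myh6 at 9 and Myh7 at 12.

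Over the whole coding sequence the closest pairs were Myh6 with Myh7 (91.6% identical, longest identical run 245 bases) and Myh1 with Myh2 (91.0%, 268 bases). Myh3 was 80.6 to 81.6% identical to the fast and neonatal genes, and Myh7b 70.2 to 73.0% identical to any other member. Of the 151-base stretches of its transcripts, the length of 1 mate of a read pair, Myh7 shared 3.68% with another member, Myh6 2.54%, Myh2 1.48%, Myh1 1.33%, Myh8 0.343% and Myh4 0.334%. Myh3 and Myh7b shared none. A read of such a stretch has no unique origin, so the split between Myh6 and Myh7 and between the fast genes and Myh8 is less certain than the levels of Myh3 and Myh7b. Myh6 is a scarce gene beside its abundant near-copy, with mean levels over the groups of 10.8 to 20.01 CPM against 108 to 203 CPM for Myh7.

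The 4 genes Myh2, Myh1, Myh4 and Myh8 also share a stretch just upstream of their starts. The longest run common to their RefSeq promoter windows (250 bases before to 50 after the start) was 14 bases, and it occurred in 4 of 32851 windows of this length, 0.0122%, all of them these genes. It was found by comparing the windows and is a description of sequence only. Each line below gives the 60 plus-strand bases of GRCm39 that end with it, located by exact match of the RefSeq window (GRCm38.p6), with the shared run in capitals.
Myh2, chr11:67061682-67061741: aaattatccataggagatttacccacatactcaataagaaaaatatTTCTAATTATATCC
Myh1, chr11:67090722-67090781: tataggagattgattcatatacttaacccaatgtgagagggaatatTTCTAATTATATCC
Myh4, chr11:67128434-67128493: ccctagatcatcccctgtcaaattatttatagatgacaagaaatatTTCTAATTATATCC
Myh8, chr11:67167850-67167909: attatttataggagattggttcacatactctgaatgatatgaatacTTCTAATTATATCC
Counted from the RefSeq start, the run began at -125 in Myh2, -160 in Myh1, -158 in Myh4 and -54 in Myh8. On both strands, CATTCC (the MCAT element bound by TEAD factors) was in 4 of 9 member windows (Myh1, Myh4, Myh6 and Myh7) and in 14.7% of all windows. CANNTG (the E-box of the MyoD family) was in 7 of 9 against 72.3%, TATAAA in 6 of 9 against 13.6%, and the MEF2 core (CTA and TAG with 4 bases between) in 0 of 9 against 3.69%. Myh7 has 2 windows that largely overlap (chr14:55232034-55232333 and chr14:55231957-55232256) and hold the same 2 E-boxes, so this promoter is counted 2 times.

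The cardiac and slow genes each host a microRNA in an intron. The mature forms are shown because their seeds (bases 2 to 8, in capitals, sequences from RefSeq) group them.
mmu-miR-208a-3p, in Myh6, chr14:55186529-55186550: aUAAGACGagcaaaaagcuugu
mmu-miR-208b-3p, in Myh7, chr14:55213167-55213188: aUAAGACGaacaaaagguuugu
mmu-miR-499-5p, in Myh7b, chr2:155464813-155464833: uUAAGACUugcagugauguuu
The 2 members of the miR-208 pair share their seed, and the seed of miR-499 differs in its last base. Their hairpins had 0, 6 and 3 counts over all 18 libraries, in the order printed. Poly(A) libraries do not capture mature microRNAs, so these counts say nothing of their levels.

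Libraries held 13041979 to 28496727 counts (median 22417470), and the 8 genes together took 0.340 to 0.604% of them. Levels are given as CPM (counts scaled to a common library size) after TMM scaling, as mean ± SD of 3 libraries. Gene calls used edgeR's quasi-likelihood test with Benjamini-Hochberg adjustment over the 21772 genes, with an adjusted p below 0.05 and a fold change above 1.3. Log2 changes carry their standard error, SE. Nothing in the labels says that replicates were separate cultures, so p-values measure only the spread between these samples. Mapk6 was lower in siErk3 libraries, at 57.4 ± 2.64 against 132 ± 3.18 CPM in BSA (log2 -1.20, adjusted p = 1.77e-14) and at 120 ± 11.4 against 232 ± 14.7 CPM in PA (log2 -0.95, adjusted p = 1.21e-12). Mapkapk5 was near the floor of detection, at 1.63 ± 0.422 in siMk5 against 2.46 ± 0.126 CPM in siNTC in BSA and at 2.31 ± 0.131 against 3.24 ± 0.702 CPM in PA. Its ranges did not overlap, but neither difference passed the test (adjusted p = 0.469 in both media).

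The 8 myotube markers (among them Acta1, Des, Ckm and Ttn) were present in every library, summing to 9901 to 11934 CPM in BSA and 9135 to 10634 CPM in PA. The 5 cardiomyocyte markers together summed to 1.39 to 2.53 CPM. Nppa had a median of 0.0211 CPM and Myl7 1 count in all libraries together, while Nkx2-5 (0.315 to 1.14 CPM) and Tnni3 (0.270 to 1.26 CPM) were low but present in every library. Of 4 fibroblast markers 3 were present (Col1a1, Pdgfra and Dcn) and Thy1 was at or near 0. Of 4 smooth muscle markers, Acta2 and Smtn carried the signal and Myh11 was near 0. Adipocyte, immune and endothelial markers were near 0 except Pparg and Cd68, and Plin1 had 0 counts. In bulk RNA, fewer myotubes and less RNA per myotube cannot be told apart.

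Myh3 was the most abundant heavy chain in all 6 groups. Per kilobase of annotated exon, the scale on which genes can be compared, its level ran from 349 to 527 CPM, followed by Myh1 (104.6 to 164), Myh4 (28.8 to 64.5), Myh8 (18.3 to 42.9), Myh7 (12.6 to 23.5) and Myh2 (3.29 to 6.57). Myh7b and Myh6 were lowest, at 1.57 to 4.01 and 1.60 to 2.97 CPM per kilobase. This order held in every group down to Myh2, and the libraries of neighboring genes did not overlap. At the bottom, Myh7b stood above Myh6 in the BSA groups, Myh6 stood above Myh7b in the PA groups, and these 2 genes overlapped in siNTC PA and siMk5 PA. The place of Myh8 rests on its length, since its exons cover 11772 bases and its longest transcript 6235. With the longest transcript of each gene, Myh8 stood above Myh4 in siErk3 BSA (10.0 against 6.54% of the summed family), in siErk3 PA (9.12 against 5.33%) and in siMk5 PA (6.28 against 5.09%), and below it in siNTC BSA (8.18 against 9.37%). The libraries of the 2 genes overlapped in siMk5 BSA (7.76 against 7.80%) and siNTC PA (7.20 against 7.04%).

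**Figure D1:**
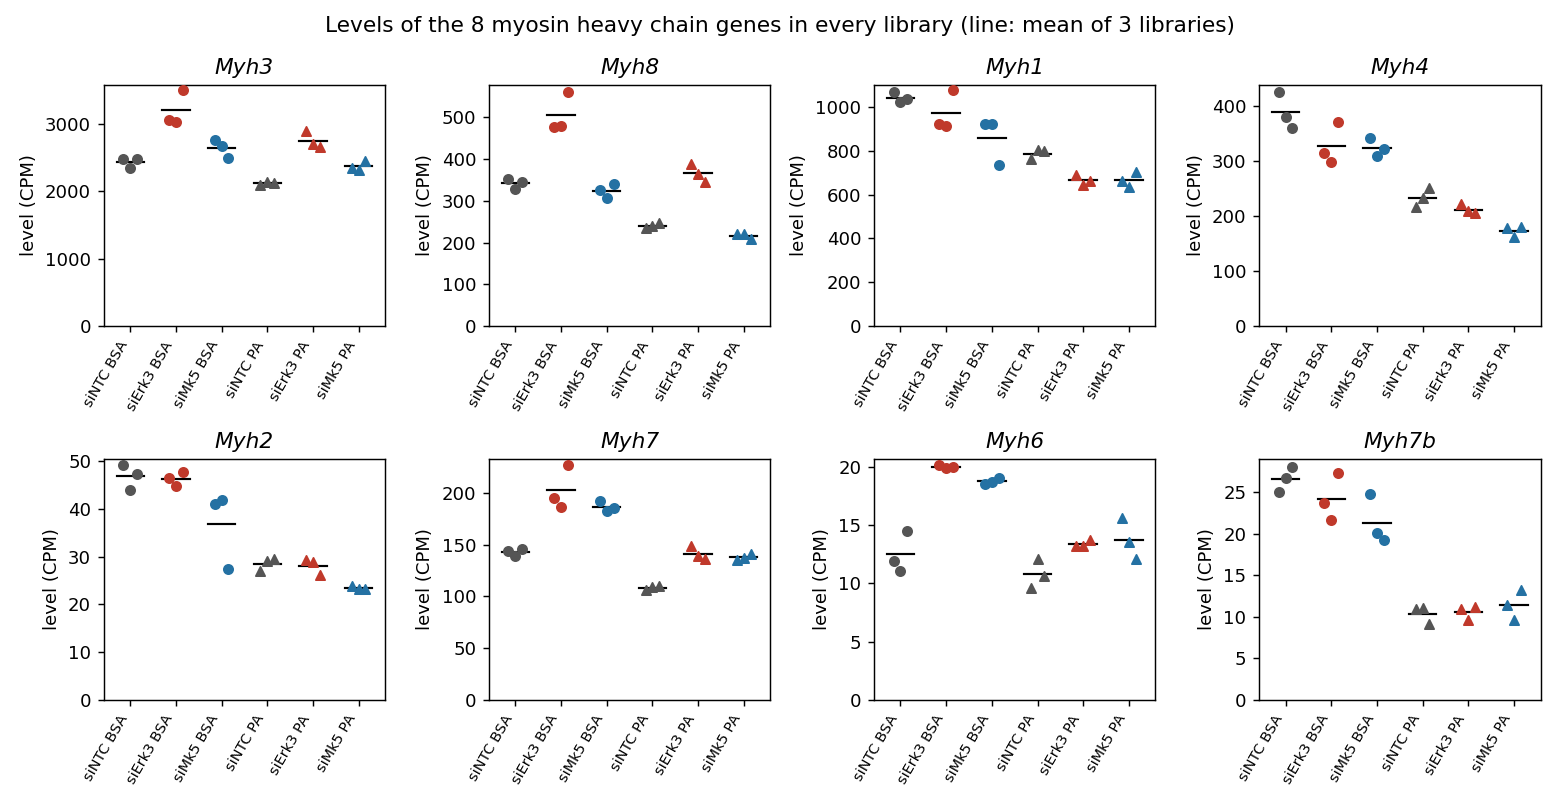
Levels of the 8 heavy chain genes in TMM-scaled CPM (vertical axes from 0, one panel a gene) in the 6 groups, with 1 point a library and a bar at the mean of 3 libraries. Myh3 lies between 2096 and 3502 CPM, Myh8 is highest in siErk3 in each medium, and Myh7b falls from 19.2 to 28.1 CPM in BSA to 9.15 to 13.2 CPM in PA.

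Silencing of Erk3 raised both developmental heavy chains and, of the slow and cardiac chains, Myh7 and Myh6 in BSA medium. Myh8, Myh6, Myh7 and Myh3 rose and none of the 8 fell, while 0.588% of all tested genes were called higher. The median log2 change over the 8 genes was 0.19, against 0.02 over all tested genes. In PA medium 2 of 8, Myh8 and Myh7, were called higher, against 0.432% of all tested genes, with a median of 0.16 against -0.00.

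Myh8, the neonatal chain, had the smallest adjusted p of the 8 genes in both media. Its siNTC BSA libraries, from lowest to highest, had 329, 345 and 352 CPM and its siErk3 BSA libraries 478, 479 and 560 CPM. In PA the siNTC libraries had 235, 240 and 246 CPM and the siErk3 libraries 345, 365 and 387 CPM. Every siErk3 library stood above every siNTC library in both media. The change was 0.57 ± 0.05 (SE) in BSA (1.48-fold, adjusted p = 1.25e-07) and 0.60 ± 0.06 in PA (1.52-fold, adjusted p = 2.27e-08).

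Myh3, the embryonic chain, had 2335, 2479 and 2480 CPM in siNTC BSA and 3025, 3055 and 3502 CPM in siErk3 BSA. In PA it had 2096, 2117 and 2133 CPM in siNTC and 2647, 2695 and 2895 CPM in siErk3. The groups were apart in both media, and the change sat at the fold criterion. In BSA it was 0.39 ± 0.05 (1.31-fold, adjusted p = 1.44e-05), which passed. In PA it was 0.38 (adjusted p = 2.38e-05), which did not pass because the fold was just under 1.3. The BSA change was under the fold criterion with filterByExpr (0.37), with no filter (0.38) and with only the groups compared fitted (0.37), and the PA change passed with DESeq2, with its size factors in edgeR and without the 18S gene (0.38 in each). Without siErk3 BSA replicate 3 the BSA change was 0.33, and without siNTC BSA replicate 2 it was 0.37, each below the fold criterion. Without any 1 of siNTC PA replicates 2 and 3 and siErk3 PA replicates 2 and 3 the PA change was 0.38 to 0.41 and passed.

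Myh7, the slow and beta-cardiac chain, had 139, 143 and 146 CPM in siNTC BSA against 186, 195 and 227 CPM in siErk3 BSA. In PA the values were 106, 109 and 110 CPM against 136, 139 and 149 CPM. The siErk3 libraries were again above all siNTC libraries in both media. The change was 0.51 ± 0.05 in BSA (1.42-fold, adjusted p = 6.97e-07) and 0.38 ± 0.05 in PA (1.305-fold, adjusted p = 6.03e-05). The PA value fell below the fold criterion without siNTC PA replicate 1 (0.37) or siErk3 PA replicate 1 (0.35).

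Myh6, the alpha-cardiac chain, went from 11.1, 11.9 and 14.5 CPM in siNTC BSA to between 19.9 and 20.2 CPM in the 3 siErk3 BSA libraries (mean 20.01 ± 0.146 CPM), a change of 0.68 ± 0.09 (1.60-fold, adjusted p = 2.64e-05). In PA it had 9.58, 10.7 and 12.1 CPM in siNTC and 13.2, 13.2 and 13.7 CPM in siErk3. The PA libraries did not overlap either, but the change of 0.31 did not pass (adjusted p = 0.188). The third slow-type gene, Myh7b, had log2 values of -0.14 in BSA (adjusted p = 0.668) and 0.02 in PA (adjusted p = 0.992), with overlapping libraries in both media.

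The adult fast chains did not pass in either medium. Myh1 had 1043 ± 22.1 CPM in siNTC BSA and 971 ± 92.9 CPM in siErk3 BSA (log2 -0.10, adjusted p = 0.616). In PA its siErk3 libraries (643, 663 and 688 CPM) lay below its siNTC libraries (761, 797 and 803 CPM), with a log2 value of -0.24 and an adjusted p of 0.07. Myh4 had log2 values of -0.24 in BSA (adjusted p = 0.0775) and -0.14 in PA (adjusted p = 0.605). Myh2 had -0.01 and -0.02.

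Several technical and marker values moved with the siErk3 comparison in BSA. The 18S gene took 1.497 to 2.96% of counts in siErk3 BSA and 2.56 to 7.17% in siNTC BSA. Left out of the library sizes, 3 of 8 genes were called higher in place of 4, and the change lost was that of Myh3. The summed fibroblast markers were 1724 to 1766 CPM in siErk3 BSA against 1446 to 1669 CPM in siNTC BSA. Smooth muscle markers were 2229 to 2283 against 2005 to 2084 CPM, and the 4 cycling markers 854 to 891 against 823 to 850 CPM. Myotube markers overlapped, at 10616 to 11880 against 11220 to 11934 CPM. The cardiomyocyte markers went the other way, at 1.56 to 1.94 against 2.17 to 2.53 CPM, near the floor. The part of these lists in the result was not tested. In PA, where Myh8 and Myh7 also rose, the sums of fibroblast, smooth muscle and cycling markers overlapped between siErk3 and siNTC. The sum of the 4 undifferentiated myoblast markers was lower in siErk3 (213 to 224 against 231 to 257 CPM). Its part was not tested.

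After silencing of Mk5 in BSA, 2 of 8 heavy chains rose, Myh6 and Myh7, where 0.0138% of all tested genes were called higher, and none of the 8 fell. In PA, 1 of 8 fell, Myh4, where 0.491% of all tested genes were called lower, and none rose. The median over the 8 genes was -0.17 in BSA and -0.01 in PA, against 0.01 and 0.00 over all tested genes.

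Myh6 had 18.5, 18.7 and 19.04 CPM in siMk5 BSA against 11.1 to 14.5 CPM in siNTC BSA, a change of 0.59 ± 0.09 (1.501-fold, adjusted p = 0.00251). Without siNTC BSA replicate 2 this change was 0.49 and no longer passed (adjusted p = 0.0835). Myh7 had 182, 185 and 192 CPM in siMk5 BSA against 139 to 146 CPM, a change of 0.39 ± 0.05 (1.31-fold, adjusted p = 0.000275). That change also sat at the fold criterion and was 0.37 without siNTC BSA replicate 2 or siMk5 BSA replicate 1. Both genes stood above siNTC in all 3 siMk5 libraries. In PA the changes were 0.34 for Myh7 (135, 137 and 141 CPM against 106 to 110 CPM, adjusted p = 0.000243, under the fold criterion) and 0.36 for Myh6 (adjusted p = 0.113). Leaving out siNTC PA replicate 2 or siMk5 PA replicate 3 put Myh6 past both criteria (0.45 and 0.44).

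Myh4, the type IIb chain, had 161, 179 and 180 CPM in siMk5 PA against 217, 232 and 250 CPM in siNTC PA, with no overlap. It fell by 0.43 ± 0.07 on the log2 scale (fold 0.743, adjusted p = 0.000258). Without siNTC PA replicate 3 or siMk5 PA replicate 2 the change was -0.37 and -0.38, under the fold criterion. In BSA its log2 value was -0.26 (adjusted p = 0.176). Myh1 and Myh2 had values between -0.24 and -0.34 in both media, and none passed (adjusted p = 0.0948 to 0.374). Their siMk5 libraries were below their siNTC libraries in each medium. Myh3 (0.12 and 0.16), Myh8 (-0.08 and -0.16) and Myh7b (-0.32 and 0.13) did not pass in BSA or PA. In BSA the 18S gene took 8.39 to 12.9% of counts in siMk5 libraries, above all siNTC BSA libraries. Without it Myh6 was the 1 gene called. Cycling markers were 856 to 895 CPM in siMk5 BSA against 823 to 850 CPM, and fibroblast and smooth muscle markers overlapped. Cardiomyocyte markers (1.65 to 1.96 against 2.17 to 2.53 CPM) and immune markers (0.722 to 1.31 against 1.46 to 1.75 CPM) were lower, both near the floor. Their part in the result was not tested.

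**Figure D2:**
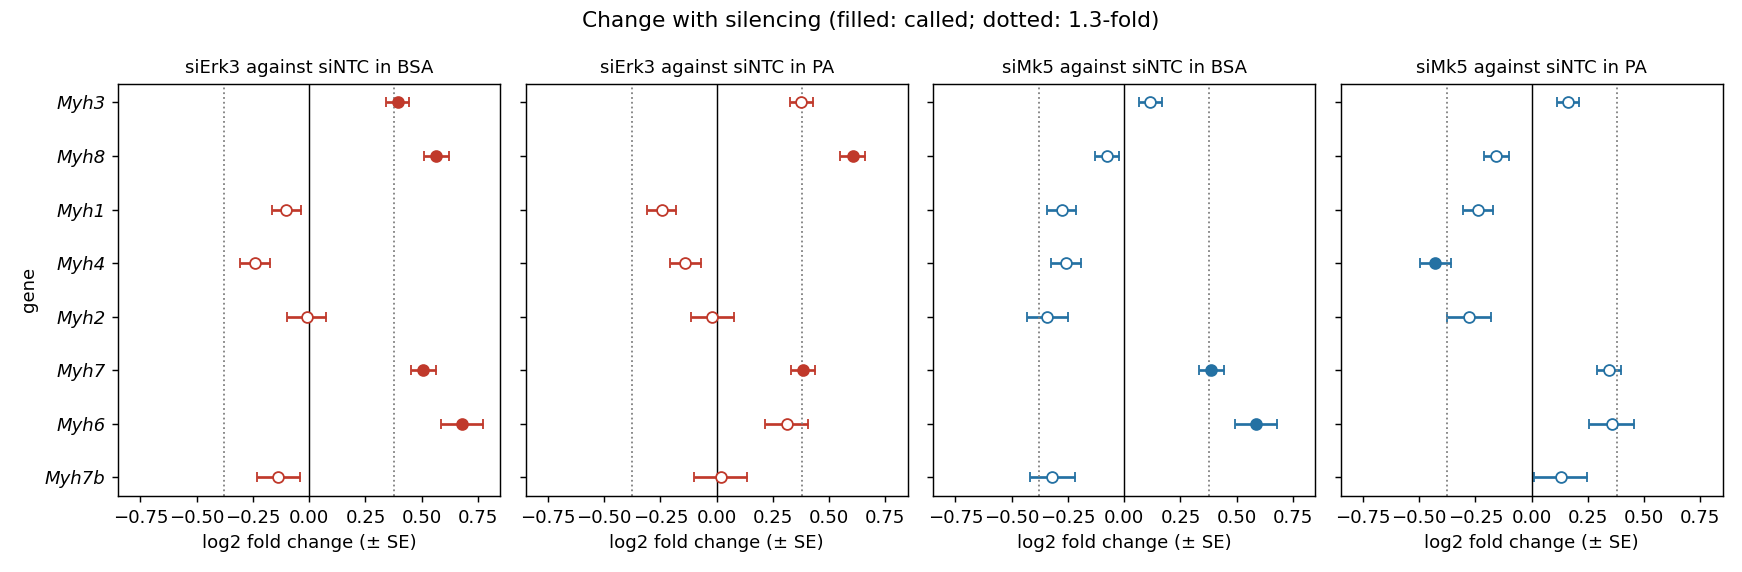
Log2 change of each heavy chain after silencing, with bars of 1 standard error either side, in 4 panels for siErk3 and siMk5 against siNTC in BSA and PA; dotted lines mark a fold change of 1.3 and filled points passed both criteria. Myh8 stands at 0.57 and 0.60 for siErk3 and at -0.08 and -0.16 for siMk5, while Myh7 lies between 0.34 and 0.51 in all 4 panels.

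The 2 silenced groups were compared directly, without siNTC. Myh8 was the 1 gene called, 1.56-fold higher in siErk3 than in siMk5 in BSA (505 ± 47.3 against 324 ± 17.5 CPM, log2 0.64 ± 0.05, adjusted p = 9.5e-09). In PA it was 1.70-fold higher (366 ± 21.1 against 216 ± 6.8 CPM, log2 0.76 ± 0.06, adjusted p = 2.85e-11). One of 8 genes was thus called higher in each medium, against 0.482% of all tested genes in BSA and 0.854% in PA, and none was called lower. Myh3 had log2 values of 0.28 (adjusted p = 0.00196) and 0.21 (adjusted p = 0.0185), and Myh4 0.29 in PA (adjusted p = 0.0201), all under the fold criterion. Without siMk5 BSA replicate 1 or 2, Myh2 was also called in BSA, giving 2 of 8. Between these groups in BSA the 18S share (1.497 to 2.96 against 8.39 to 12.9%), the fibroblast markers (1724 to 1766 against 1405 to 1637 CPM) and the smooth muscle markers (2229 to 2283 against 2019 to 2213 CPM) did not overlap either. Without the 18S gene in the library sizes Myh8 was again the 1 gene called in each medium, and the part of the markers was not tested.

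Palmitic acid lowered most heavy chains, whichever siRNA the cells carried. The genes called lower were 6 of 8 in siNTC, 7 of 8 in siErk3 and 6 of 8 in siMk5, and none rose. Among all tested genes 15.1%, 16.3% and 14.6% were called lower. The median log2 change of the 8 genes was -0.46, -0.56 and -0.52 in this order, against -0.03, -0.01 and -0.01 over all tested genes, and all 8 values were below 0 in each. The summed level of the 8 genes was 4433 ± 134 CPM in siNTC BSA and 3534 ± 61.2 CPM in siNTC PA, 5291 ± 471 and 4181 ± 187 CPM in siErk3, and 4407 ± 248.7 and 3608 ± 108 CPM in siMk5.

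Myh7b had the largest fall in siNTC and siErk3, and in siMk5 it fell about as much as Myh4 (log2 -0.91 and -0.90). It had 25.01, 26.8 and 28.1 CPM in siNTC BSA and 9.15, 10.9 and 11.1 CPM in siNTC PA, a log2 change of -1.36 (adjusted p = 3.93e-12). In siErk3 the values were 21.7, 23.7 and 27.3 CPM in BSA and 9.66, 10.9 and 11.2 CPM in PA (log2 -1.20, adjusted p = 2.53e-11). In siMk5 they were 19.2, 20.03 and 24.8 CPM and 9.64, 11.4 and 13.2 CPM (log2 -0.91, adjusted p = 2.04e-08). The 3 PA groups met at nearly 1 level, 10.4 to 11.4 CPM on average, from BSA means of 21.3 to 26.6 CPM.

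Among the fast chains, Myh4 had 360, 380 and 425 CPM in siNTC BSA and 217, 232 and 250 CPM in siNTC PA, and fell by 0.73 on the log2 scale (adjusted p = 1.26e-10). Its fall was 0.63 in siErk3 and 0.90 in siMk5 (log2 -0.63 and -0.90, adjusted p = 2.5e-09 and 1.86e-12). Myh2, the type IIa chain, had 44.0, 47.3 and 49.2 CPM in siNTC BSA and 26.9, 29.1 and 29.6 CPM in siNTC PA, with log2 changes of -0.71, -0.72 and -0.65 in siNTC, siErk3 and siMk5 (adjusted p = 1.05e-07, 4.54e-08 and 9.98e-07). Myh1 had 1024, 1038 and 1067 CPM in siNTC BSA and 761, 797 and 803 CPM in siNTC PA. Its changes were -0.41 and -0.55 in siNTC and siErk3 (adjusted p = 3.83e-06 and 1.74e-08). In siMk5 the Myh1 change of -0.37 was under the fold criterion (adjusted p = 1.82e-05), and it passed with DESeq2, with its size factors in edgeR and with only the groups compared fitted (all -0.38), and without siMk5 BSA replicate 3 (-0.47) or siMk5 PA replicate 3 (-0.41).

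Of the developmental pair, Myh8 fell in all 3 siRNA backgrounds (log2 -0.51, -0.47 and -0.59 in siNTC, siErk3 and siMk5, adjusted p = 3.84e-09, 1.17e-08 and 1.88e-10). Myh3 was lower in every PA library than in any BSA library of its siRNA, but by log2 values of -0.20, -0.22 and -0.16 that stayed under the fold criterion (adjusted p = 0.00141, 0.000555 and 0.0123). Myh7 fell by 0.40, 0.52 and 0.44 on the log2 scale (adjusted p = 3.9e-07, 9.78e-10 and 3.88e-08). Myh6 fell in siErk3 (-0.58, adjusted p = 1.52e-06) and siMk5 (-0.44, adjusted p = 0.000152), and its siNTC value was -0.21 with overlapping libraries (adjusted p = 0.0892). Without siMk5 PA replicate 3 the siMk5 change of Myh6 was -0.36 and did not pass.

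**Figure D3:**
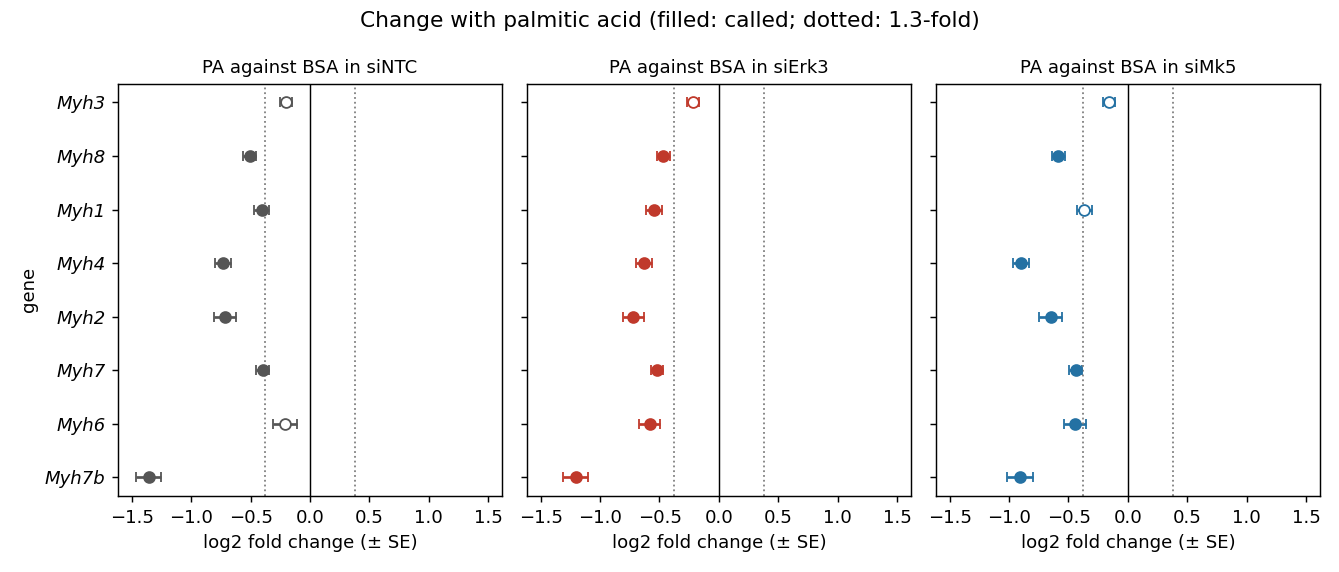
Log2 change of each heavy chain in PA against BSA within each siRNA, with bars of 1 standard error either side; dotted lines mark a fold change of 1.3 and filled points passed both criteria. All 24 points lie below 0, from -0.16 (Myh3 in siMk5) to -1.36 (Myh7b in siNTC).

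Marker lists moved with the medium too. The 8 myotube markers, none of them a heavy chain, summed to 11220 to 11934 CPM in siNTC BSA and 9555 to 10014 CPM in siNTC PA, and to 10616 to 11880 and 9457 to 10415 CPM in siErk3, without overlap. In siMk5 they overlapped, at 9901 to 11569 and 9135 to 10634 CPM. Fibroblast markers went in summed level from 1405 to 1766 CPM over the BSA libraries to 440 to 777 CPM over the PA libraries. Smooth muscle markers went from 2005 to 2283 CPM to 855 to 1119 CPM and cycling markers from 823 to 895 CPM to 342 to 448 CPM. Undifferentiated myoblast markers stayed within 213 to 257 CPM in sum. Over all libraries single genes of this list ranged more widely. Pax7 ran from 15.9 to 47.4 CPM, Cd34 from 44.5 to 86.0 CPM and Sdc4 from 104 to 180 CPM. The part of the marker lists in the fall of the heavy chains was not tested. Without the 18S gene the counts called lower were again 6, 7 and 6 of 8.

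Whether silencing changed the response to palmitic acid was tested as an interaction. None of the 8 genes passed for siErk3 (0 of 8, where 0.0367% of all tested genes did) or for siMk5 (0 of 8 against 0.211%) by edgeR's quasi-likelihood test, and DESeq2 also called 0. One gene in each had an unadjusted p below 0.05. For siErk3 it was Myh6 (log2 -0.37, adjusted p = 0.598 in edgeR) and for siMk5 it was Myh7b (log2 0.45, adjusted p = 0.420 in edgeR). The differences between siRNAs in which genes passed under PA are therefore not shown to be differences in response.

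The makeup of the family was then described as shares of the summed CPM per kilobase. Shares sum to 100% in each library, so a rise of 1 gene lowers the others, and no test was run on them. The developmental pair (Myh3 and Myh8) held 62.6 ± 0.735% in siNTC BSA, 70.1 ± 0.329% in siErk3 BSA and 67.6 ± 0.952% in siMk5 BSA. In PA these shares were 67.0 ± 0.618, 74.7 ± 0.405 and 72.3 ± 0.514%. The developmental share was thus larger in both silenced groups than in siNTC, and larger in PA than in BSA for each siRNA.

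The adult fast chains (Myh1, Myh2 and Myh4) made up 34.2 ± 0.835, 26.2 ± 0.281 and 28.3 ± 1.14% in siNTC, siErk3 and siMk5 in BSA, and 30.2 ± 0.625, 22.2 ± 0.379 and 24.2 ± 0.545% in PA. The slow and cardiac chains (Myh7, Myh6 and Myh7b) held 3.26 ± 0.119, 3.70 ± 0.0627 and 4.05 ± 0.193% in BSA and 2.85 ± 0.0323, 3.09 ± 0.0259 and 3.49 ± 0.0445% in PA. Their summed share was larger in both silenced groups within a medium, and most so in siMk5. Of these chains Myh7b went the other way in BSA, at 0.584 ± 0.0438% in siNTC, 0.448 ± 0.0191% in siErk3 and 0.469 ± 0.0446% in siMk5. In PA its share overlapped that of siNTC in both silenced groups. Shares of read pairs, not divided by length, gave developmental means of 62.6, 69.9 and 67.2% in BSA and 66.7, 74.4 and 71.6% in PA.

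**Figure D4:**
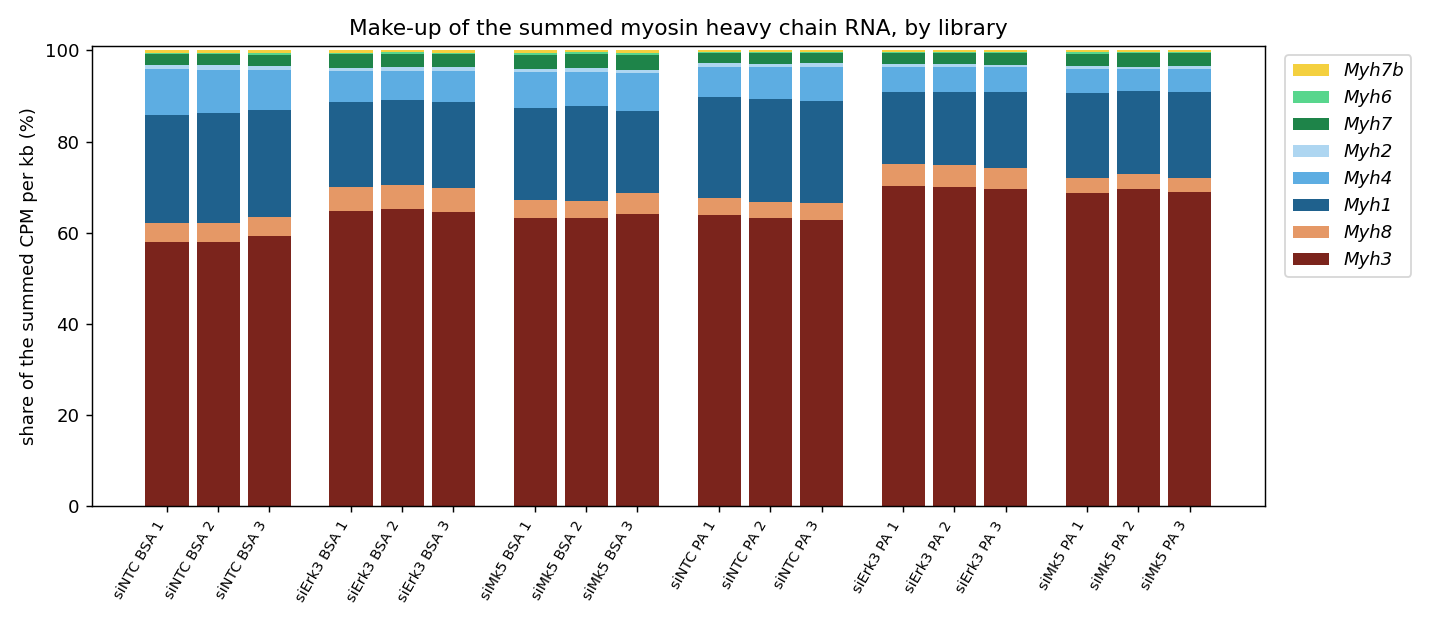
Share of each heavy chain in the summed CPM per kilobase (vertical axis in percent), 1 stacked bar a library, grouped by siRNA and medium. The developmental pair fills 62.6% of the mean siNTC BSA library and 74.7% of the mean siErk3 PA library, and the fast chains go from 34.2% to 22.2%.

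Within these classes Myh3 carried the shift. Its share was 58.3 ± 0.718% in siNTC BSA, 64.8 ± 0.33% in siErk3 BSA and 63.6 ± 0.534% in siMk5 BSA, and 63.3 ± 0.635, 69.9 ± 0.302 and 69.0 ± 0.412% in PA. The PA shares were higher although the CPM of Myh3 was lower, since the log2 values of the other 7 genes were further below 0. Myh8 held 4.22 ± 0.0233% in siNTC BSA, 5.27 ± 0.0504% in siErk3 BSA and 4.04 ± 0.423% in siMk5 BSA, and 3.70 ± 0.0416, 4.79 ± 0.113 and 3.24 ± 0.2% in PA. Myh1 held 23.9 ± 0.308% in siNTC BSA and 16.2 ± 0.408% in siErk3 PA. Myh4 went from 9.37 ± 0.677% in siNTC BSA to 5.09 ± 0.216% in siMk5 PA.

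Other contractile and regulatory genes were read from lists by role. Of 10 slow-fiber genes, siErk3 in BSA raised 1 and lowered 0 (in either direction 0.785% of all tested genes were called). In PA it raised 1 and lowered 1 (0.556%). The siMk5 comparison lowered 1 and raised 0 in BSA (0.0643%) and raised 1 and lowered 0 in PA (0.547%). The gene raised by siErk3 was Mybpc1, the slow myosin-binding protein C, at 128 ± 6.69 against 93.7 ± 9.41 CPM in BSA (log2 0.46 ± 0.06, adjusted p = 4.46e-06) and 82.2 ± 2.88 against 58.2 ± 1.23 CPM in PA (log2 0.50, adjusted p = 2.49e-06). The gene lowered by siMk5 in BSA was also Mybpc1 (70.3 ± 2.18 CPM, log2 -0.41, adjusted p = 0.000275), whose change without siNTC BSA replicate 1 was -0.33, under the fold criterion. Mybpc1 thus differed between siErk3 and siMk5 by 0.87 in BSA and 0.75 in PA on the log2 scale (adjusted p = 1.21e-11 and 8.73e-11).

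The other slow-list calls were of scarce transcripts. Myl2, a slow regulatory light chain, had 3.45 ± 0.347 CPM in siErk3 PA against 6.13 ± 0.223 CPM in siNTC PA (log2 -0.82, adjusted p = 0.00173). Myl3, a slow essential light chain, had 2.71 ± 0.338 CPM in siMk5 PA against 1.43 ± 0.185 CPM (log2 0.92, adjusted p = 0.0145), a call that did not hold without siNTC PA replicate 1 (adjusted p = 0.125) or siMk5 PA replicate 3 (adjusted p = 0.131). Of 12 fast-fiber genes, only Pvalb, the fast-fiber calcium buffer, was called in any silencing comparison, in siErk3 PA (6.96 ± 0.611 against 4.63 ± 0.198 CPM, log2 0.59, adjusted p = 0.0147). The Pvalb call did not hold with only the groups compared fitted (adjusted p = 0.0623) or without siNTC PA replicate 1 (0.0879), siNTC PA replicate 2 (0.0522) or siErk3 PA replicate 2 (0.131). The median log2 value of the 12 fast genes was -0.13 in siErk3 BSA, against 0.02 over all tested genes. It was -0.06 in siErk3 PA (against -0.00), -0.21 in siMk5 BSA (against 0.01) and -0.00 in siMk5 PA (against 0.00). In edgeR, Tnnc2 (log2 -0.31, adjusted p = 0.00318) and Myl1 (log2 -0.29, adjusted p = 0.00828) were lower in siMk5 BSA but under the fold criterion. Of 8 tested developmental and cardiac genes, 6 other myosin heavy chain genes and 11 thick-filament assembly genes, none was called in any of the 4 comparisons with siNTC.

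Of 25 regulators of muscle gene expression, 1 was called in each siErk3 comparison and 0 in the siMk5 comparisons. It was Vgll2, a cofactor of TEAD factors, at 13.3 ± 1.12 against 8.5 ± 0.852 CPM in BSA (log2 0.64, adjusted p = 9.85e-05) and 12.8 ± 0.759 against 9.25 ± 0.85 CPM in PA (log2 0.48, adjusted p = 0.00472). The PA call did not hold when only the groups compared were fitted (adjusted p = 0.0639). In siMk5 its log2 values were 0.25 (adjusted p = 0.627) and 0.02 (adjusted p = 0.993). Vgll2 was higher in siErk3 than in siMk5 in both media (log2 0.39 and 0.45, adjusted p = 0.0281 and 0.00389). The BSA difference did not pass with filterByExpr (log2 0.38) or without siErk3 BSA replicate 2 or 3 or siMk5 BSA replicate 2 or 3 (adjusted p = 0.0621 to 0.233).

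Palmitic acid changed genes in each of these lists, where 30.6%, 32.1% and 29.7% of all tested genes were called in either direction in siNTC, siErk3 and siMk5. Of the 25 regulators it lowered 12, 14 and 13 and raised 1, 2 and 1. Among those lowered in all 3 were Myod1 (log2 -0.91, -0.80 and -0.76) and Myog (-0.59, -0.48 and -0.44), which drive myogenic differentiation. Hdac4, a repressor of MEF2 factors, was raised in all 3 (0.68, 0.62 and 0.59). Of 11 thick-filament assembly genes 7, 5 and 2 were lowered and 1, 1 and 2 raised. The myosin methyltransferase Smyd1 fell (-0.59, -0.60 and -0.54) and the chaperone Hsp90aa1 rose (0.98, 1.03 and 0.96).

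Of the 12 fast genes PA lowered 3, 2 and 2 and raised 1 in each siRNA. Atp2a1, the fast calcium pump, fell (log2 -1.18, -1.10 and -0.97) and Mybpc2, the fast myosin-binding protein C, rose (0.74, 0.67 and 0.79). Of the 10 slow genes it raised 1, Atp2a2, the slow calcium pump (1.13, 1.04 and 1.06), and lowered 1, 2 and 1, Mybpc1 being lowered in all 3 (-0.68, -0.64 and -0.53). Of the 8 developmental and cardiac genes 3, 2 and 1 were lowered and 1 in each was raised. Of the 6 other heavy chain genes 1, 2 and 1 were lowered, among them the nonmuscle chain Myh10 (-0.77, -0.96 and -0.98). In the fast, slow and other heavy chain lists, calls in either direction were near or below the share among all tested genes. No gene of any list passed an interaction test.

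The likeness of patterns was described by Pearson's r of log2 CPM over the 18 libraries, among 9331 genes with a mean of at least 10 CPM. Libraries share depth and group, and the values mostly follow the 6 groups, so they carry no p. The gene most like Myh8 was Mybpc1 (r = 0.965), and that most like Myh6 was Myh7 (r = 0.909). Myh3 was most like Actn2, an actinin of the Z-disc (r = 0.973), and Myh2 most like Myot, a Z-disc protein (r = 0.957). Myh1 was most like Hspb7 (r = 0.956), Myh7 like Patj (r = 0.951) and Myh7b like Pgm5 (r = 0.985).

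Among the 8 genes themselves the fast chains went together, with r = 0.939 for Myh1 and Myh2, 0.918 for Myh1 and Myh4 and 0.906 for Myh2 and Myh4. The developmental pair had r = 0.868 and Myh3 with Myh7 had r = 0.869. Myh7b, although a slow-type gene by sequence, was closer to Myh4 (r = 0.893). The lowest values were between Myh1 and Myh6 (r = 0.263) and between Myh1 and Myh3 (r = 0.319). Myh1 with Myh2 and Myh6 with Myh7 are also the pairs with the longest identical runs, so shared reads can raise these 2 values, and that part was not tested.

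**Figure D5:**
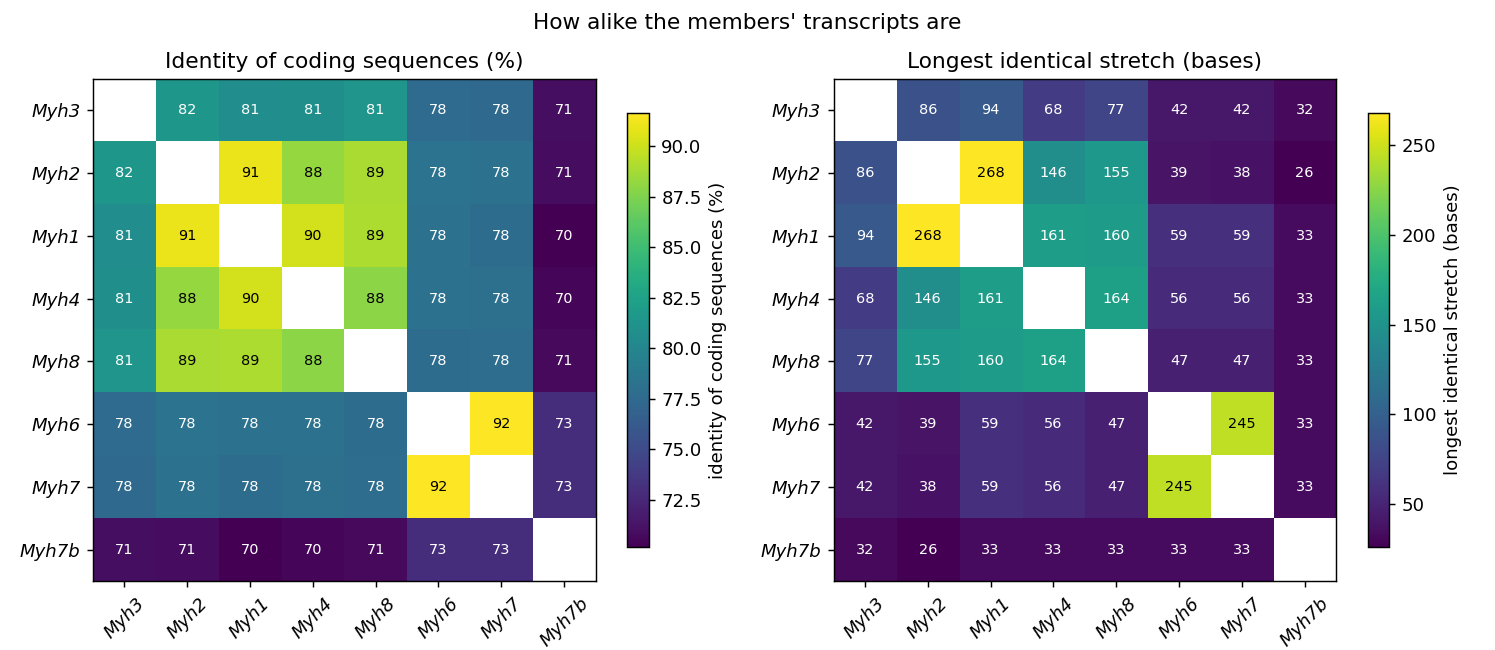
Sequence likeness of each pair of heavy chain genes in 2 panels, with the value in each cell and color from low to high. The left panel gives the identity of coding sequences in percent and the right panel the longest identical stretch in bases. Identity runs from 70.2% (Myh1 with Myh7b) to 91.6% (Myh6 with Myh7). The longest stretch runs from 26 bases (Myh2 with Myh7b) to 268 bases (Myh1 with Myh2).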

How the data were processed

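The authors deposited 1 table of raw counts for all 18 libraries, made with featureCounts (version 2.0.0, paired, reverse-stranded, mapping quality of at least 3, primary alignments) on Ensembl gene models of GRCm39 per the file headers; the submitters' processing notes also name mm10. A second deposited table, of log2 values, was not used. No column held a sample of another series. The 21772 genes whose counts summed to 10 or more entered an edgeR 4.0.16 fit in R 4.3.3 (TMM, quasi-likelihood, 6 groups in 1 model). DESeq2 1.42.0, other scalings, filters, fits and sets of libraries were alternatives. The pipeline was tested on simulated counts for siErk3 in BSA, where 200 of 21347 genes were changed, each with a mean of at least 10 CPM. Of 100 genes at each size, 92% of log2 changes of 0.5 and 100% of those of 1 were called. Of the unchanged genes 8 were called. Smaller changes, and changes of scarcer genes, were not simulated. Pairs of replicates all differed by more than counting noise (chi-square per degree of freedom of at least 3.05). Genes named are the 8 members, the silenced genes, called genes and at most 4 examples of each list, and the genes most like a member, of which some are not reported here. Members and lists were chosen with earlier results of these data known. Shared stretches were counted on GENCODE M39 transcripts. Counting used strand, and genes overlapping a member lie on the opposite strand.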

Additional observations from a re-analysis of the deposited data

Results flagged for a closer look

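The share of Myh4 in the summed family differed between siErk3 and siMk5 in opposite directions in the 2 media. In BSA every siErk3 library had a smaller Myh4 share than every siMk5 library (6.68 ± 0.21 against 7.87 ± 0.487%, a difference of -1.19 percentage points). In PA every siErk3 library had a larger share (5.43 ± 0.0206 against 5.09 ± 0.216%, a difference of 0.338 points). The difference between the media was not tested.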

How the results depend on the processing

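Counts of heavy chains called were within 1.5 times the main count under every alternative, with the exceptions given here. For siMk5 in BSA the 2 genes became 1 with filterByExpr, with no filter, with only the groups compared and without the 18S gene, Myh7 then lying just under the fold criterion, and 0 to 2 when 1 library was left out. For siErk3 in PA leaving out 1 library gave 1 to 3 genes. For siMk5 in PA the 1 gene became 2 with an adjusted p alone (0.776% of all tested genes then called) and 0 to 2 when 1 library was left out. For siErk3 against siMk5 an adjusted p alone gave 2 in BSA and 3 in PA (0.818% and 1.54% of all tested genes), and leaving out 1 library gave 1 to 2 in BSA. The interaction of siMk5 with PA gave 1 gene, Myh7b, with no filter. Log2 values near 0 changed sign when 1 library was left out, over -0.0504 to 0.0243 for Myh2 in siErk3 BSA, -0.0573 to 0.0339 for Myh2 in siErk3 PA and -0.0572 to 0.0847 for Myh7b in siErk3 PA. Of the values of members refitted, 844 kept their direction and side of the criteria, 24 newly passed, 18 no longer passed and 8 changed sign. Replicate numbers did not pair the libraries consistently. Correlations of same-numbered deviations ran from -0.497 to 0.0275 for siErk3 and siNTC in PA. They ran from 0.0257 to 0.399 for siErk3 and siMk5 in PA and from 0.0182 to 0.179 for siMk5 and siNTC in BSA. A replicate block changed the call or direction of 0 of 168 values. With it 4, 2, 2 and 1 genes were called in the siErk3 BSA, siErk3 PA, siMk5 BSA and siMk5 PA comparisons. For PA in siNTC, siErk3 and siMk5 it gave 6, 7 and 6. Depth limited Mapkapk5, at a few CPM, more than any heavy chain.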
